A study of Mus musculus with 32 samples.

Results

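The comparison described here is that of early 2-cell mouse embryos treated with A-485 against early 2-cell embryos treated with DMSO, measured by total RNA-seq in 2 libraries per treatment. These 4 libraries were chosen by their labels (stage, assay and treatment) from the 32 samples of the series. The embryos were wild type, from in vitro fertilization of B6D2F1/J eggs with B6D2F1/J sperm, with parents of 6 to 8 weeks. A-485, a small molecule that blocks the catalytic activity of the acetyltransferases CBP and p300, was given at 10 µM in KSOM, a culture medium for embryos, from 4 to 20 hours post insemination (hpi), and control embryos were cultured with the solvent DMSO. The sources used here give neither the number of embryos in a library nor whether replicates came from separate fertilizations, so the p-values measure only the spread between these libraries, which may in part be technical. Of 21897 protein-coding genes, 15521 had at least 10 counts summed over the 4 libraries and were tested, and 10786 of these reached a mean FPKM (fragments scaled to transcript length and library total) of 1 or more with either treatment.

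CBP (encoded by *Crebbp*) and p300 (*Ep300*) are large coactivators that are brought to enhancers and promoters by DNA-binding factors and acetylate histones there, lysine 27 of histone H3 among others, as well as transcription factors. A fertilized mouse egg starts with RNA stored by the oocyte. Its own genome is first transcribed at a low level in the zygote and early 2-cell embryo (minor zygotic genome activation, ZGA) and then strongly at late 2-cell (major ZGA), while maternal transcripts decay. An early 2-cell embryo therefore holds a mixture of stored and newly made RNA, and a lower level of a transcript in bulk RNA can come from fewer cells that express it or from less RNA per cell, which cannot be told apart.

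The libraries held between 21496069 and 23864414 counts, with 10.54% to 11.39% of counts on the mitochondrial genome, and Pearson's r of log2(FPKM + 0.1) across protein-coding genes was 0.975 between DMSO-treated and 0.974 between A-485-treated replicates. Genes of the 2-cell stage were detected in both control libraries: the summed FPKM of 7 such genes (*Zscan4c*, *Zscan4d*, *Zfp352*, *Usp17lc*, *Tdpoz3*, *Tdpoz4* and *Obox6*) was 481.1 and 417.1 with DMSO, against 9.55 and 7.83 with A-485. The sum over 6 transcripts stored in the egg (*Bmp15*, *Gdf9*, *Nlrp5*, *Ooep*, *Oosp1* and *Zp3*) was 1544.2 and 1591.4 with DMSO and 1687.7 and 1827.1 with A-485. Markers of other cells were low: 2 of 15 cumulus cell markers (*Cyp19a1* and *Serpine2*) reached a mean FPKM of 1, with summed levels of 26.8 to 37.1 with DMSO and 30.2 to 32.8 with A-485, and *Hsd3b1* and *Inha* were at 0. Of the 8 fibroblast, 8 erythroid and 10 sperm markers, *Postn*, *Hba-a1* and *Prm2* reached an FPKM of 1, the summed levels over both treatments were 0.98 to 3.01, 0.23 to 4.8 and 5.95 to 8.88, and *Col1a2* and *Prm1* were among those at 0. The erythroid sum was lower with A-485 (0.97 and 0.23, against 4.8 and 2.49 with DMSO), and its part in the results was not tested. The transcripts of the inhibited proteins remained present: *Crebbp* had an FPKM of 298.24 and 315.07 with DMSO and 305.82 and 319.16 with A-485 (adjusted p = 0.20, edgeR), and *Ep300* had 51.44 and 41.58 with DMSO and 31.48 and 32.2 with A-485 (log2 fold change -0.47, SE 0.07, adjusted p = 9.6e-04), less than the 2-fold needed for a call. These RNA levels say nothing of the activity of the proteins, which the inhibitor acts on.

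Early 2-cell embryos lost transcripts far more often than they gained them when CBP/p300 activity was blocked. A gene was called lower or higher when its Benjamini-Hochberg adjusted p in the quasi-likelihood test of edgeR passed 0.05, the change was 2-fold or more and the higher group averaged an FPKM of 1 or above. By this rule 1298 protein-coding genes were lower (8.36% of those tested) and 42 were higher (0.271%), so that 3.13% of the calls were increases. Only the 10786 genes with an FPKM of 1 or more could be called, so the share called lower among them was above 8.36%. It ran from 9.32% to 16.6% in classes of control FPKM between 1 and 100, and was 3.36% at 100 or more. Shares of lists made up of expressed genes are to be read with this in mind. The falls were large: the median log2 fold change of the genes called lower was -2.34, against -0.01 over all genes tested, 784 genes fell at least 4-fold and 299 at least 16-fold. Together the genes called lower made up 3.29% and 3.05% of the counts of the DMSO-treated libraries, and 0.64% and 0.67% of those of the A-485-treated libraries. The FPKM of both A-485-treated libraries was below that of both DMSO-treated libraries for 1285 of the 1298 genes, while the same held for 30.1% of all genes tested. For 38 of the 42 genes called higher both A-485-treated libraries lay above both controls, which held for 21.2% of all genes (51.3% did not overlap in either direction). An adjusted p under 0.05 at any fold or level was reached by 1757 genes in the downward and 266 in the upward direction, and an unadjusted p under 0.05 by 2673 and 1141. Leaving out any 1 library changed the set of increases more, for its size, than the set of decreases. Such a fit leaves 1 library in a group.

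**Figure D1:**
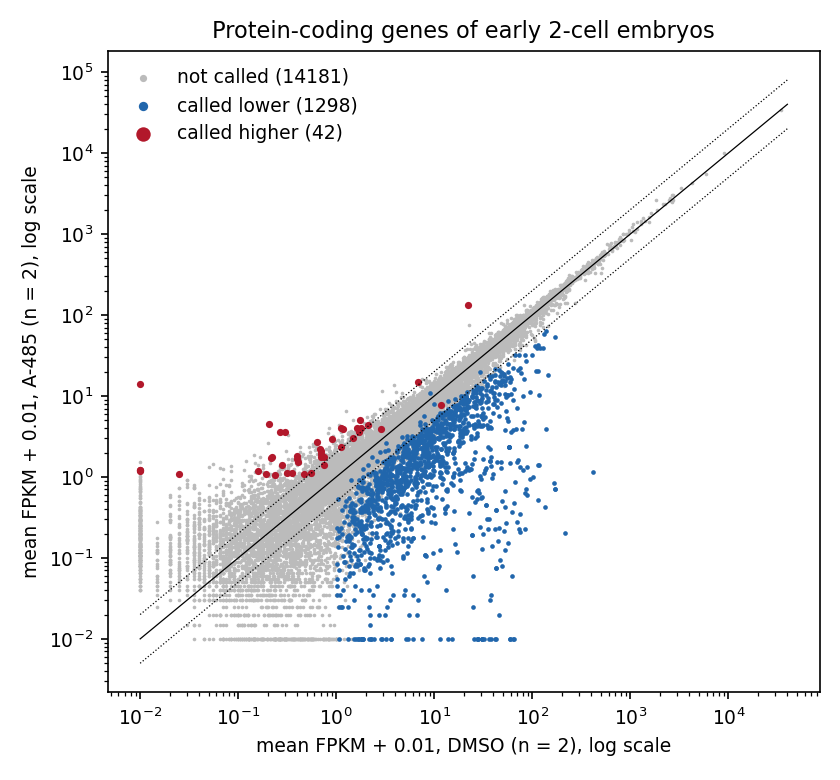
Mean FPKM + 0.01 of 15521 protein-coding genes in DMSO-treated (x axis) and A-485-treated (y axis) early 2-cell embryos, n = 2 libraries each, both axes on a log scale; the solid line marks equal levels and the dotted lines 2-fold differences. The 1298 genes called lower (blue) reach far below the diagonal at all but the highest levels, and the 42 called higher (red) lie mostly at low levels.

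The transcripts with the deepest losses were those that the mouse embryo makes in a burst at the 2-cell stage, among them the *Zscan4* cluster of zinc finger and SCAN domain genes on chromosome 7, the *Tdpoz* genes, the Usp17-like ubiquitin peptidases, the homeobox genes of the *Obox* family and the Prame-like genes. Of 34 such members of multicopy families, 25 fell and none rose, with a median log2 fold change of -5.45 (-5.76 over the 31 whose reads were not shared with copies, of which 24 fell). *Zscan4f*, on the plus strand of chromosome 7 (11397915 to 11402318, GRCm38), had an FPKM of 230.72 and 195.56 with DMSO and 0.39 and 0 with A-485. *Zscan4d* had 76.06 and 63.7 with DMSO and 0.48 and 0.06 with A-485, and *Zfp352*, a zinc finger gene on chromosome 4, had 121.56 and 112.43 against 1.28 and 1.52. Both treated libraries were thus near 0 at these genes while both controls were high. The log2 fold change was -9.57 (SE 0.36) for *Zscan4f*, -8.03 (SE 0.35) for *Zscan4d* and -6.46 (SE 0.13) for *Zfp352*, with an adjusted p of 3.8e-09, 9.6e-09 and 6.1e-11. The family was not lost as a whole: *Obox5*, which is stored in the egg, had an FPKM of 1594.94 and 1535.46 with DMSO and 1698.66 and 1590.79 with A-485 (adjusted p = 0.28), while *Obox3* went from 58.49 and 47.36 to 0.68 and 0.14.

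The promoters of these 3 genes are shown as examples of the deepest falls. Each window runs from 250 bases before to 50 bases after the annotated start (GRCm38.p6, RefSeq), 5′ to 3′ along the gene, and capitals mark matches, on either strand, to the TATA box (TATAAA), the CCAAT box, the GC box (GGGCGG), the cAMP response element (TGACGTCA), the ETS site (CCGGAAGT), the core bound by homeodomain proteins of the OTX and OBOX kind (GGATTA), the monomer site of nuclear receptors (AGGTCA) or the E-box (CACGTG). The windows are chr4:90218570-90218869 on the plus strand, chr7:11166099-11166398 on the minus strand and chr7:11397665-11397964 on the plus strand.
Zfp352: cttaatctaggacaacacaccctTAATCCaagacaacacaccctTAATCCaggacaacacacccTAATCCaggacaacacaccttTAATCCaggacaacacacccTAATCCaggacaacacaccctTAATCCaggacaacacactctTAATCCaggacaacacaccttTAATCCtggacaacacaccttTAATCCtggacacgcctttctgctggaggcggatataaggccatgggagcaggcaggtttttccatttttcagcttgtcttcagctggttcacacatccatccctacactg
Zscan4d: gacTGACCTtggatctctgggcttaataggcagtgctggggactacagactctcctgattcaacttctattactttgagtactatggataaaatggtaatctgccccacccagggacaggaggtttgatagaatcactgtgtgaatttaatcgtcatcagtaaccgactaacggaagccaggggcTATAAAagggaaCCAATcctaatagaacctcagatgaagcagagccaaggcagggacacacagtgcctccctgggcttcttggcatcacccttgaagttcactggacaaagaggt
Zscan4f: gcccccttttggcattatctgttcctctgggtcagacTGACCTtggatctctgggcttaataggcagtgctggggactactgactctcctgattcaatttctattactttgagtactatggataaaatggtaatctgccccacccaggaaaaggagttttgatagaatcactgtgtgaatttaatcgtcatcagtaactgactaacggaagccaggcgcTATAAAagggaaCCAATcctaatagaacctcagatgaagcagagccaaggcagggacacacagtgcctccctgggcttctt
The *Zfp352* window held 9 matches to GGATTA, all on the reverse strand (capitals TAATCC), between positions -227 and -61 from the start. *Zscan4d* and *Zscan4f* shared their matches in the same order: AGGTCA on the reverse strand (at -247 and -213), TATAAA (at -65 and -31) and CCAAT (at -53 and -19). None of these 3 windows was rich in CpG, with an observed over expected CpG ratio of 0.14, 0.18 and 0.19. A match is a string of letters and not a measured site of binding.

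The other largest falls lay in the same families and in several genes outside them. They were taken among genes with a control FPKM of at least 10 and without shared reads, gene models left out. *Zscan4-ps3* had 1767 and 2005.7 counts with DMSO and none with A-485, at least 1340.5-fold lower against a floor of 3 counts over the group. *Tdpoz1* had 904.8 and 1347.1 counts with DMSO and 0 and 1.2 with A-485, a ratio of 1920.3 (95% counting interval 430.4 to 94854.7). *AF067063* and *AF067061*, members of a chromosome 13 family, had 1049.6 and 652.9 counts against 0 and 1, and 759.9 and 641.7 against 2 and 1. The remaining genes of this set kept a few counts with A-485. *Crxos*, a homeobox gene, went from an FPKM of 69.36 and 81.28 to 0.27 and 0.13, *Calcoco2*, an autophagy receptor, from 50.63 and 37.98 to 0.12 and 0.18, and *Bex6* from 37.59 and 40.65 to 0.19 and 0.07. *Guca1a*, an activator of guanylate cyclase in photoreceptors, had 14.3 and 12.03 with DMSO and 0 and 0.06 with A-485. No treated library overlapped a control at any of these genes, and the adjusted p values ran from 6.3e-10 to 1.6e-06. In all, 95 of the genes called lower kept at most 3 counts over both treated libraries, and their fitted fold changes depend on the prior count of the fit.

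Genes at the highest control levels fell by very different amounts. *Taf1d*, a subunit of the RNA polymerase I selectivity factor, had an FPKM of 179.76 and 159.77 with DMSO and 56.23 and 51.66 with A-485 (log2 fold change -1.25, SE 0.09). *Fundc1*, a mitophagy receptor of the outer mitochondrial membrane, went from 143.62 and 145.8 to 17.71 and 19.05 (-2.84, SE 0.12), and *BC147527* from 131.74 and 139.03 to 0.6 and 0.24 (-7.3, SE 0.23). *Calr*, a calcium-binding chaperone of the endoplasmic reticulum, and *Sp110*, a nuclear body protein, kept more of their level and were already abundant in DMSO-treated zygotes (275.66 and 303.34 for *Calr*, 218.61 and 254.01 for *Sp110*). *Calr* had 140.01 and 135.12 with DMSO and 63.93 and 64.43 with A-485, and *Sp110* had 143.52 and 119.87 against 54.49 and 61.51. With *Zscan4f* these were the 6 genes with the highest control levels among those called lower, gene models and genes with shared reads or overlapping FPKM left out. Of the 1298, 24 had a control FPKM of 100 or more, 513 of 10 or more and 145 under 2. The share of genes called lower was 9.92% at a control FPKM of 1 to 2, 16.6% at 5 to 10, 12.3% at 20 to 50 and 3.36% at 100 or more.

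**Figure D2:**
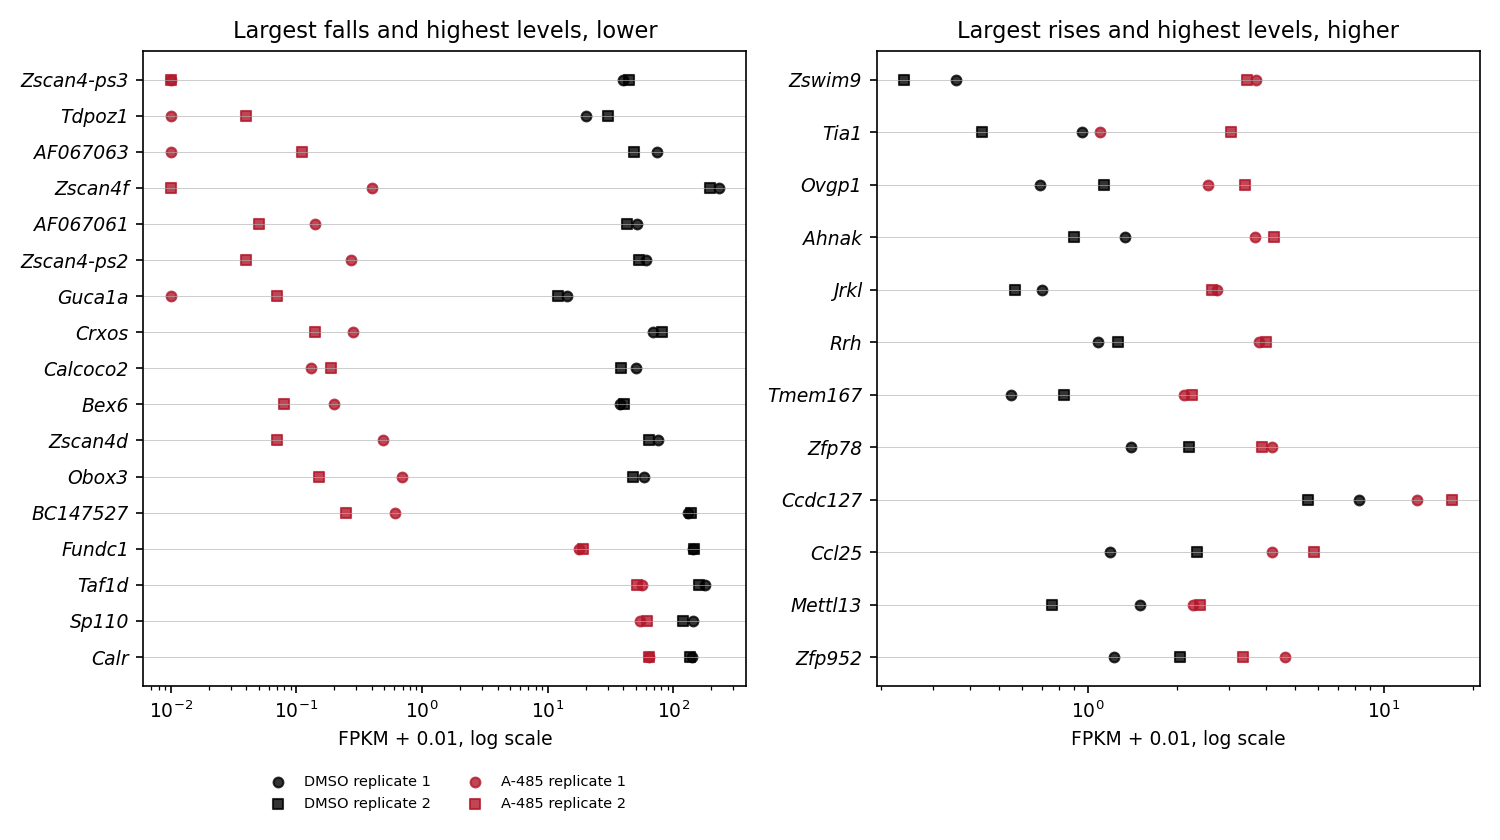
FPKM + 0.01 (x axis, log scale) in each of the 4 early 2-cell libraries for the genes with the largest falls and the highest control levels among genes called lower (left) and the corresponding genes called higher (right); black marks DMSO, red A-485, circles replicate 1 and squares replicate 2. The left panel spans up to 4 orders of magnitude between treatments, while the genes on the right differ by less and lie mostly under an FPKM of 10. Gene models and genes with shared reads or overlapping FPKM were left out. So were, from the largest changes, falls with a control FPKM under 10 and rises with an A-485 FPKM under 2.

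The broadest functional group to fall was that of the cytoplasmic ribosomal proteins, the structural proteins of the ribosome. Of 82 genes 81 were tested, 47 fell, none rose, and 79 had a log2 fold change below 0, with a median of -1.36. Their summed FPKM was 3945.3 and 3656.7 with DMSO and 1928.8 and 2004.5 with A-485. *Rplp0*, a protein of the ribosomal stalk, had 120.72 and 117.52 with DMSO and 38.28 and 40.04 with A-485 (log2 fold change -1.6, SE 0.1, adjusted p = 2.1e-07). *Rplp1*, its stalk partner, went from 120.48 and 107.95 to 18.55 and 21.59 (-2.49, SE 0.19), and *Rpl23a* from 108.12 and 109.75 to 19.21 and 21.86 (-2.4, SE 0.17). The 2 treatments were well apart at all 3, with each pair of replicates close together. The member with the highest level, *Rps15a*, had 379.52 and 399.96 with DMSO and 321.87 and 366.88 with A-485 and was not called (adjusted p = 0.18). Only 2 of the genes tested here shared reads with copies, although many retrocopies of ribosomal protein genes exist, and without those that shared reads 46 of 79 fell.

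Genes for the proteins of mitochondrial ribosomes rarely changed. Of 78 genes for their proteins 2 fell (*Mrpl41* and *Mrpl46*) and none rose, with a median log2 fold change of 0.12 and a summed FPKM of 705.9 and 713 with DMSO and 692.2 and 692.2 with A-485. *Mrps14*, the most abundant, had 66.7 and 64.19 against 71.29 and 76.45. The shares called lower were 58.0% for cytoplasmic and 2.56% for mitochondrial ribosomal proteins, set against 8.36% of all genes tested.

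Factors that build ribosomes fell along with the ribosomal proteins. Of 61 genes of the small-subunit processome and 40S maturation 16 fell (26.2%, median log2 fold change -0.57). Of 66 genes of 60S assembly, snoRNPs and the nucleolus 26 fell (39.4%, median -0.73). The RNA polymerase I machinery, which transcribes ribosomal RNA, had 7 of 15 genes lower (46.7%, median -1.25). None rose in the 3 groups, and 8.36% of all genes tested were called lower. *Nop58*, a core protein of box C/D snoRNPs, had an FPKM of 81.09 and 70.58 with DMSO and 23.94 and 14.32 with A-485 (-1.91, SE 0.18). *Tsr1*, a GTPase-like factor of 40S maturation, went from 14.5 and 10.11 to 3.29 and 3 (-2.03, SE 0.19), and *Utp14b*, a retrogene copy of a processome gene, from 47.41 and 39.61 to 9.19 and 8.81 (-1.77, SE 0.11). On the 60S side *Zfp622*, a zinc finger gene of the large-subunit assembly list, was nearly lost. It had 39.88 and 31.99 with DMSO and 0.12 and 0.46 with A-485 (-6.24, SE 0.3, adjusted p = 2.2e-08), while *Mak16* went from 31.1 and 30.15 to 3.84 and 4.55 (-2.93, SE 0.16) and *Nop2*, a methyltransferase of 28S rRNA, from 13.5 and 7.34 to 0.77 and 0.76 (-3.9, SE 0.31). The most abundant member of each assembly list was not called: *Npm1*, a nucleolar protein, had 500.56 and 482.89 against 468.93 and 381.88 (adjusted p = 0.20), and *Riok1*, a kinase of 40S maturation, 189.57 and 240.56 against 250.65 and 199.46 (adjusted p = 0.44). For RNA polymerase I, *Ubtf*, the upstream binding factor of ribosomal DNA, had 33.66 and 28.81 with DMSO and 4.12 and 4.61 with A-485 (-2.69, SE 0.17), and *Cd3eap*, a polymerase subunit, 7.11 and 9 against 0.88 and 0.39 (-3.86, SE 0.32). *Polr1b*, *Polr1c*, *Polr1e*, *Taf1d* and *Ttf1* were the other members that fell.

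A ribosomal protein promoter and one of an assembly factor are shown for contrast with those of the 2-cell genes, both on the plus strand, with the same meaning of capitals. The *Rplp0* window is chr5:115559217-115559516 and the *Tsr1* window chr11:74897830-74898129.
Rplp0: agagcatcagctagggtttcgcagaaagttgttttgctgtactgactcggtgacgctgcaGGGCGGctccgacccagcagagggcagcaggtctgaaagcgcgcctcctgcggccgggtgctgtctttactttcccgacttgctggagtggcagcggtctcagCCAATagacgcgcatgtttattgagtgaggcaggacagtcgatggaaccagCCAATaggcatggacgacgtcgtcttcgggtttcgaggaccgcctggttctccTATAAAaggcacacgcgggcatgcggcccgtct
Tsr1: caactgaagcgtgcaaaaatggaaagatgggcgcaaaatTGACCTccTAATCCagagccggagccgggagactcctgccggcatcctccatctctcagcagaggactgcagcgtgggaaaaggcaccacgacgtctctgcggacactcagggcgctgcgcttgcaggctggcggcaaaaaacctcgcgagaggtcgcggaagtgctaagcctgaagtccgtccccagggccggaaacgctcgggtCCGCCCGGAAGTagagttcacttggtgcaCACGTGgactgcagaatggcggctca
*Rplp0* held GGGCGG at -190, 2 matches to CCAAT (at -87 and -36) and TATAAA at 17, and *Tsr1* held CCGGAAGT at -1, overlapping GGGCGG at -5, and CACGTG at 24, beside AGGTCA at -211 and GGATTA at -203. Both windows were richer in CpG than those above, with observed over expected ratios of 0.93 and 0.87. Over the 59 small-subunit assembly genes with an FPKM of at least 1, 28.8% of windows held CACGTG and 28.8% CCGGAAGT, against 9.95% and 8.5% of the 10772 windows of all such protein-coding genes. Over the 64 large-subunit assembly genes 32.8% held CCGGAAGT and 15.6% CACGTG. Among the 81 ribosomal protein windows 8.64% held TGACGTCA, against 3.49% of all, while 19.8% held CCGGAAGT and 9.88% CACGTG. Windows of mitochondrial ribosomal proteins held CCGGAAGT at 14.5%. Over all genes called lower, 8.71% of windows held CACGTG, 7.86% CCGGAAGT and 2.7% TGACGTCA. The list shares cover all expressed members, called or not.

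Among transcription and RNA processing factors, the shares called lower ran from near the 8.36% of all genes tested (10.3% for RNA polymerase II and 10.7% for Mediator and elongation) to 33.3% for snRNP assembly. Of 21 genes of the RNA polymerase III machinery, which makes tRNA and 5S RNA, 4 fell (*Gtf3c4*, *Gtf3c5*, *Gtf3c6* and *Polr3g*), of 39 RNA polymerase II subunits and general factors 4 (*Gtf2f1*, *Polr2b*, *Polr2d* and *Polr2k*), and of 56 Mediator and elongation genes 6, with medians of -0.28, -0.15 and -0.17. *Polr3g*, the polymerase III subunit found in stem cells and embryos, had an FPKM of 8.27 and 9.27 with DMSO and 3.42 and 4.36 with A-485 (log2 fold change -2.2, SE 0.3). *Gtf2f1*, the large subunit of TFIIF, went from 45.07 and 34.87 to 4.47 and 7.93 (-2.67, SE 0.23), *Hexim1*, which inhibits the elongation kinase P-TEFb, from 27.27 and 31.66 to 4.9 and 3.54 (-2.78, SE 0.16), and *Paf1* from 29.63 and 33.32 to 4.75 and 7.71 (-2.44, SE 0.16). *Cdk9*, the kinase of P-TEFb, was also among those that fell. The most abundant members did not: *Polr2c* had 299.46 and 298.84 against 315.2 and 311.91, and *Med27* 304.68 and 306.52 against 314.38 and 347.65. Of 78 splicing genes 15 fell (median -0.31), and of 18 genes that assemble spliceosomal snRNPs 6 fell (-0.77). *Snrpc*, a protein of the U1 snRNP, went from 82.19 and 74.78 to 4.09 and 3.76 (-3.54, SE 0.16), *Cwc22* from 62.56 and 59.59 to 9.81 and 11.48 (-2.32, SE 0.12), and *Srsf2*, an SR protein, from 42.6 and 40.64 to 18.2 and 18.12 (-1.18, SE 0.12). *Snrpe*, a core Sm protein, had 255.57 and 233.97 against 253.96 and 248.2, and 115.65 and 117.16 in DMSO-treated zygotes.

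The SMN complex and cap-related genes *Ncbp1*, *Tgs1* and *Ddx20* led the snRNP group. *Ncbp1*, the large subunit of the nuclear cap-binding complex, had an FPKM of 14.72 and 13.22 with DMSO and 1.98 and 2.51 with A-485 (log2 fold change -2.77, SE 0.22). Of 54 genes for tRNA processing and modification 8 fell (median -0.21), led by *Clp1*, a kinase of tRNA splicing, from 28.78 and 22.98 to 3.49 and 2.5 (-3.16, SE 0.21). By contrast 1 of 23 tRNA synthetases fell (*Aars*). Of 19 exosome genes, which act in nuclear RNA decay, 4 fell (*C1d*, *Dis3*, *Exosc10* and *Mtrex*; 21.1%), and of 35 cytoplasmic decay genes 3 fell (*Cnot10*, *Tob1* and *Tut4*; 8.57%), against 8.36% of all genes tested, with medians of -0.13 and 0.06. *Tob1*, an adaptor that brings deadenylases to mRNA, went from 27.94 and 24.53 to 5.07 and 3.92 (-2.53, SE 0.18), whereas *Btg4*, the adaptor of maternal mRNA clearance, had 2571.88 and 2525.55 against 2925.74 and 2697.35 (adjusted p = 0.10). *Cnot10* was no longer called without A-485 replicate 1 (log2 fold change -0.93, adjusted p = 0.11) or DMSO replicate 1 (-0.96, adjusted p = 0.087). Of 29 genes of mRNA 3′ end processing 2 fell, *Ints6* (52.91 and 43.42 against 6.99 and 9.41) and *Cstf1*, which was not called without A-485 replicate 1 (-0.78, adjusted p = 0.16) or DMSO replicate 1 (-0.85, adjusted p = 0.14).

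Genes for translation, nuclear transport and protein breakdown fell at shares of 9.62%, 12.1% and 5.26%, against 8.36% of all genes tested. That background includes genes under an FPKM of 1, which could not be called. Among translation factors 5 of 52 fell (median -0.21), among nuclear transport genes 7 of 58 (-0.01) and among proteasome subunits 2 of 38 (-0.12). *Eif3c*, a subunit of the initiation factor eIF3, had an FPKM of 21.37 and 14.08 with DMSO and 3.78 and 4.71 with A-485 (log2 fold change -1.88, SE 0.17), and *Kpna1*, an importin alpha, 20.91 and 20.73 against 3.21 and 3.76 (-2.22, SE 0.18). *Eif4e1b*, the oocyte form of the cap-binding protein, had 596.58 and 555.65 against 747.76 and 737.51 (0.35, SE 0.06, adjusted p = 0.003), under the fold of a call. *Nup214*, *Psmd4* and the other most abundant members of these groups were not called.

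Chaperones of the HSP70 system were among the losses. Of 36 cytosolic chaperone genes 7 fell (19.4%, median -0.3), against 8.36% of all genes tested. Among the 7 were *Bag3*, *Hspa1a*, *Hspa1b*, *Hspa8* and *Hsph1*. *Bag3*, a co-chaperone of HSP70, had an FPKM of 18.37 and 12.82 with DMSO and 1.19 and 0.87 with A-485 (log2 fold change -3.91, SE 0.26, adjusted p = 5.0e-07). *Hspa1b*, a heat-inducible HSP70 that is also transcribed at the start of mouse embryonic transcription, had 16.02 and 16.03 against 0.72 and 1.48 (-3.84, SE 0.27), and *Hspa8*, the constitutive form, 78.24 and 63.04 against 21.68 and 20.4 (-1.76, SE 0.12). *Ptges3*, the co-chaperone p23, had 290.74 and 286.76 against 271.77 and 280.44. *Cct4*, the chaperonin subunit nearest the 2-fold cutoff, had 4.89 and 9.95 against 2.41 and 3.69 (-1.01, adjusted p = 0.050), and it was not called without A-485 replicate 1 (-0.65, adjusted p = 0.22) or DMSO replicate 2 (-0.77, adjusted p = 0.18). The *Bag3* promoter (chr7:128523333-128523632, plus strand) is shown as one with an open chromatin peak under both treatments.
Bag3: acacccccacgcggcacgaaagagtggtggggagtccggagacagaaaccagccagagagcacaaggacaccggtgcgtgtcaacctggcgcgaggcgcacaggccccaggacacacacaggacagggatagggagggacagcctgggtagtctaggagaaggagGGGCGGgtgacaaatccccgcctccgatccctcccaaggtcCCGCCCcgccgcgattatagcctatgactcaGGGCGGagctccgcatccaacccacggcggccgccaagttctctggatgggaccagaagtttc
Its matches were 3 to GGGCGG, at -85, -44 and -13, and the CpG ratio was 0.68.

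Some genes that respond fast to signals and to amino acid or ER stress were also lower, though most members of each list were not called. Of 23 targets of the integrated stress response 8 fell (34.8%, against 8.36% of all genes tested) and none rose, with a median of -0.57. The 8 were *Ddit4*, *Nupr1*, *Pck2*, *Ppp1r15a*, *Ppp1r15b*, *Psat1*, *Sesn2* and *Trib3*. *Ppp1r15a*, the phosphatase subunit GADD34 that reverses the response, had an FPKM of 95.31 and 75.1 with DMSO and 33.8 and 29.98 with A-485 (log2 fold change -1.48, SE 0.11). *Sesn2*, a leucine sensor upstream of mTORC1, went from 18.19 and 16.31 to 1.38 and 1.1 (-3.78, SE 0.19), and *Trib3*, a pseudokinase, from 4.91 and 3.09 to 0.15 and 0.18 (-4.56, SE 0.47). Of 28 immediate early genes 11 fell (39.3%) and 1 rose, with a median of -0.84. *Dusp5*, a nuclear ERK phosphatase, had 5.74 and 9.14 against 0.27 and 0.28 (-4.72, SE 0.34). *Klf10* had 25.69 and 17.35 against 3.65 and 3.79 (-2.74, SE 0.22), while *Ccn2*, a matricellular target of YAP, rose. *Dusp1*, the most abundant of the list, had 17.26 and 16.74 against 16.03 and 14.06. Among 24 p53 targets 4 fell (*Cdkn1a*, *Plk2*, *Pmaip1* and *Sesn2*), or 16.7%.

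Enzymes that make building blocks for growth fell in places. Of 36 nucleotide synthesis genes 9 fell (25.0%, median -0.53), against 8.36% of all genes tested. *Impdh2*, the rate-limiting enzyme of guanine nucleotide synthesis, had an FPKM of 23.71 and 23.86 with DMSO and 1.66 and 4.18 with A-485 (log2 fold change -4.37, SE 0.31), and *Prps1*, which makes the ribose phosphate donor, 38.6 and 34.67 against 6.21 and 2.08 (-3.68, SE 0.26). *Ppat*, *Gmps*, *Adsl* and *Cad* were also among the 9. Of 15 polyamine and methionine cycle genes 3 fell (20.0%), but the median was -0.03 and 8 had a log2 fold change below 0. *Odc1*, the first enzyme of polyamine synthesis, went from 39.09 and 35.49 to 10.95 and 11.8 (-1.63, SE 0.14), and *Mat2a*, which makes S-adenosylmethionine, from 26.41 and 16.89 to 6.32 and 7.8 (-1.41, SE 0.17). Of 23 cholesterol synthesis genes *Cyp51*, *Dhcr7*, *Ebp*, *Fdps* and *Sqle* fell, 5 in all (21.7%, median -0.5). *Hmgcs1*, the most abundant, had 121.1 and 133.1 against 127.49 and 121.46. Of 23 glycolysis genes 3 fell (*Ldha*, *Pdhb* and *Slc2a3*), and *Ldhb*, the egg's lactate dehydrogenase, had 523.55 and 440.41 against 498.89 and 496.05.

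Lysosomal enzymes showed a loss centred on a few genes. Of 32 lysosome genes 8 fell (25.0%), *Ctsa*, *Ctsb*, *Ctsc*, *Ctsl*, *Ctsz*, *Gla* and *Psap* among them. The summed FPKM of the list went from 163.3 and 173.8 with DMSO to 78.9 and 85 with A-485. *Ctsl*, the cysteine protease cathepsin L, had 62.24 and 64.16 against 3.05 and 4.43 (log2 fold change -3.08, SE 0.17). Of 291 solute carriers 19 fell and none rose (6.53%). *Slc34a2*, a phosphate transporter, had an FPKM of 88.56 and 71.99 against 1.29 and 1.13 (-5.8, SE 0.15), *Slc19a3*, a thiamine transporter, 18.92 and 17.87 against 0.6 and 0.77 (-4.85, SE 0.22), and *Slc16a6*, a monocarboxylate transporter, 39.39 and 36.67 against 2.53 and 0.96 (-4.07, SE 0.19). Of 81 nuclear-encoded respiratory chain genes 4 fell (*Atp5g1*, *Cox7b*, *Ndufs8* and *Ndufv3*; median -0.23), and this share (4.94%) and that of the solute carriers were below the 8.36% of all genes tested. Of these *Cox7b* was not called without DMSO replicate 2 (-0.87, adjusted p = 0.10), nor *Atp5g1* without A-485 replicate 1 (-1.12, adjusted p = 0.067).

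Among 51 transcription factors of genome activation, pluripotency and the first lineages 14 fell (27.5%) and none rose, with a median of -0.76. Over all genes tested 8.36% fell. The 14 were *Dppa4*, *Eomes*, *Esrrb*, *Gata2*, *Id1*, *Klf4*, *Klf5*, *Klf9*, *Nfyb*, *Rarg*, *Snai1*, *Sox15*, *Sox2* and *Tbx3*. *Dppa4*, a SAP domain factor known as an activator of *Dux*, had an FPKM of 36.13 and 31.43 with DMSO and 0.84 and 1.75 with A-485 (log2 fold change -4.12, SE 0.3), and *Gata2* 5.26 and 4.88 against 0.71 and 0.81 (-2.91, SE 0.26). *Dppa3*, the maternal factor Stella, had 1729.59 and 1530.86 against 1791.88 and 1805.5. Of 12 genes of the *Myc* network 1 fell (8.33%, median -0.1), a share like that of all genes tested. It was *Mycn*, from 4.54 and 6.22 to 0.86 and 0.75 (-3.03, SE 0.3), while *Max* had 133.61 and 170.95 against 183.78 and 211.83. Of 379 zinc finger genes with Zfp symbols 46 fell and 2 rose (12.1% and 0.528%, median -0.04). *Zfp54* went from 35.63 and 35.3 to 0.32 and 0.11 (-7.28, SE 0.27) and *Zfp217* from 28.26 and 26.38 to 4.25 and 4.18 (-2.68, SE 0.11). *Zfp57*, which guards imprints and is supplied by the egg, had 650.81 and 645.02 against 600.5 and 659.64.

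Of 36 genes of the acetylation machinery itself 1 was called, and 3 had an adjusted p under 0.05 in edgeR at any fold. *Hdac1*, a class I deacetylase that the embryo transcribes from the 2-cell stage, had an FPKM of 33.28 and 28.08 with DMSO and 3.86 and 7.07 with A-485 (log2 fold change -3.07, SE 0.25, adjusted p = 3.2e-06). *Brdt*, the most abundant reader of the list, had 446.24 and 439.16 against 494.61 and 455.5, and the median over the list was -0.06. Of 46 cell cycle genes 10 fell (21.7%, median -0.11), against 8.36% of all genes tested. The 10 were *Ccnd1*, *Ccne1*, *Cdc20*, *Cdc25c*, *Cdk1*, *Cdk2*, *Cdkn1a*, *Cdkn2c*, *Chek2* and *Fbxo5*. *Ccne1*, cyclin E1, had 65.9 and 61.07 against 9.72 and 8.18 (-2.74, SE 0.13), and *Cdc25c*, a phosphatase of mitotic entry, 13.8 and 9.3 against 1.26 and 1.59 (-2.9, SE 0.26). Of 43 replication genes 5 fell (*Cdc6*, *Fen1*, *Mcm4*, *Orc1* and *Rpa2*; median -0.12), and *Dbf4* had 532.47 and 498.03 against 541.83 and 546.46. Of 65 replication-dependent histone genes 6 fell (median -0.25), and 16 of the 65 shared reads with copies, so single histone genes are uncertain. The shares of replication and histone genes called lower (11.6% and 9.23%) were close to the 8.36% of all genes tested. Of 50 adhesion and cytoskeleton genes 13 fell (26.0%) and 1 rose. *Tubb5* had 27.79 and 26.97 against 9.09 and 8.69 (-1.57, SE 0.13). *Krt8* and *Krt18*, the first keratins of the embryo, were among those that fell.

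The maternal effect and oocyte genes all changed by less than 2-fold. None of 36 maternal effect and oocyte genes tested was called by edgeR or by DESeq2 (1 was lower without A-485 replicate 2), while 3 were lower and 10 higher at an unadjusted p under 0.05. Their log2 fold changes ran from -0.81 to 0.28 with a median of 0.06, and 5 of them had an adjusted p under 0.05 at a fold below 2. *Zbed3*, the most abundant, had an FPKM of 8854.33 and 9134.48 with DMSO and 10269.17 and 9986.27 with A-485 (log2 fold change 0.19, SE 0.04). The summed FPKM of the list was 17126.9 and 17670.4 with DMSO and 19692.6 and 19180.3 with A-485. FPKM is scaled to each library's total, so these values are shares of the measured RNA. Of 13 mitochondrially encoded genes 12 were not called, and the call of *mt-Co2* was uncertain, since RSEM's posterior SD of its count exceeded the count, its 2 treated libraries differed (226.59 and 39.6, against 21.68 and 22.4) and it was not called by DESeq2 (adjusted p = 0.098).

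**Figure D3:**
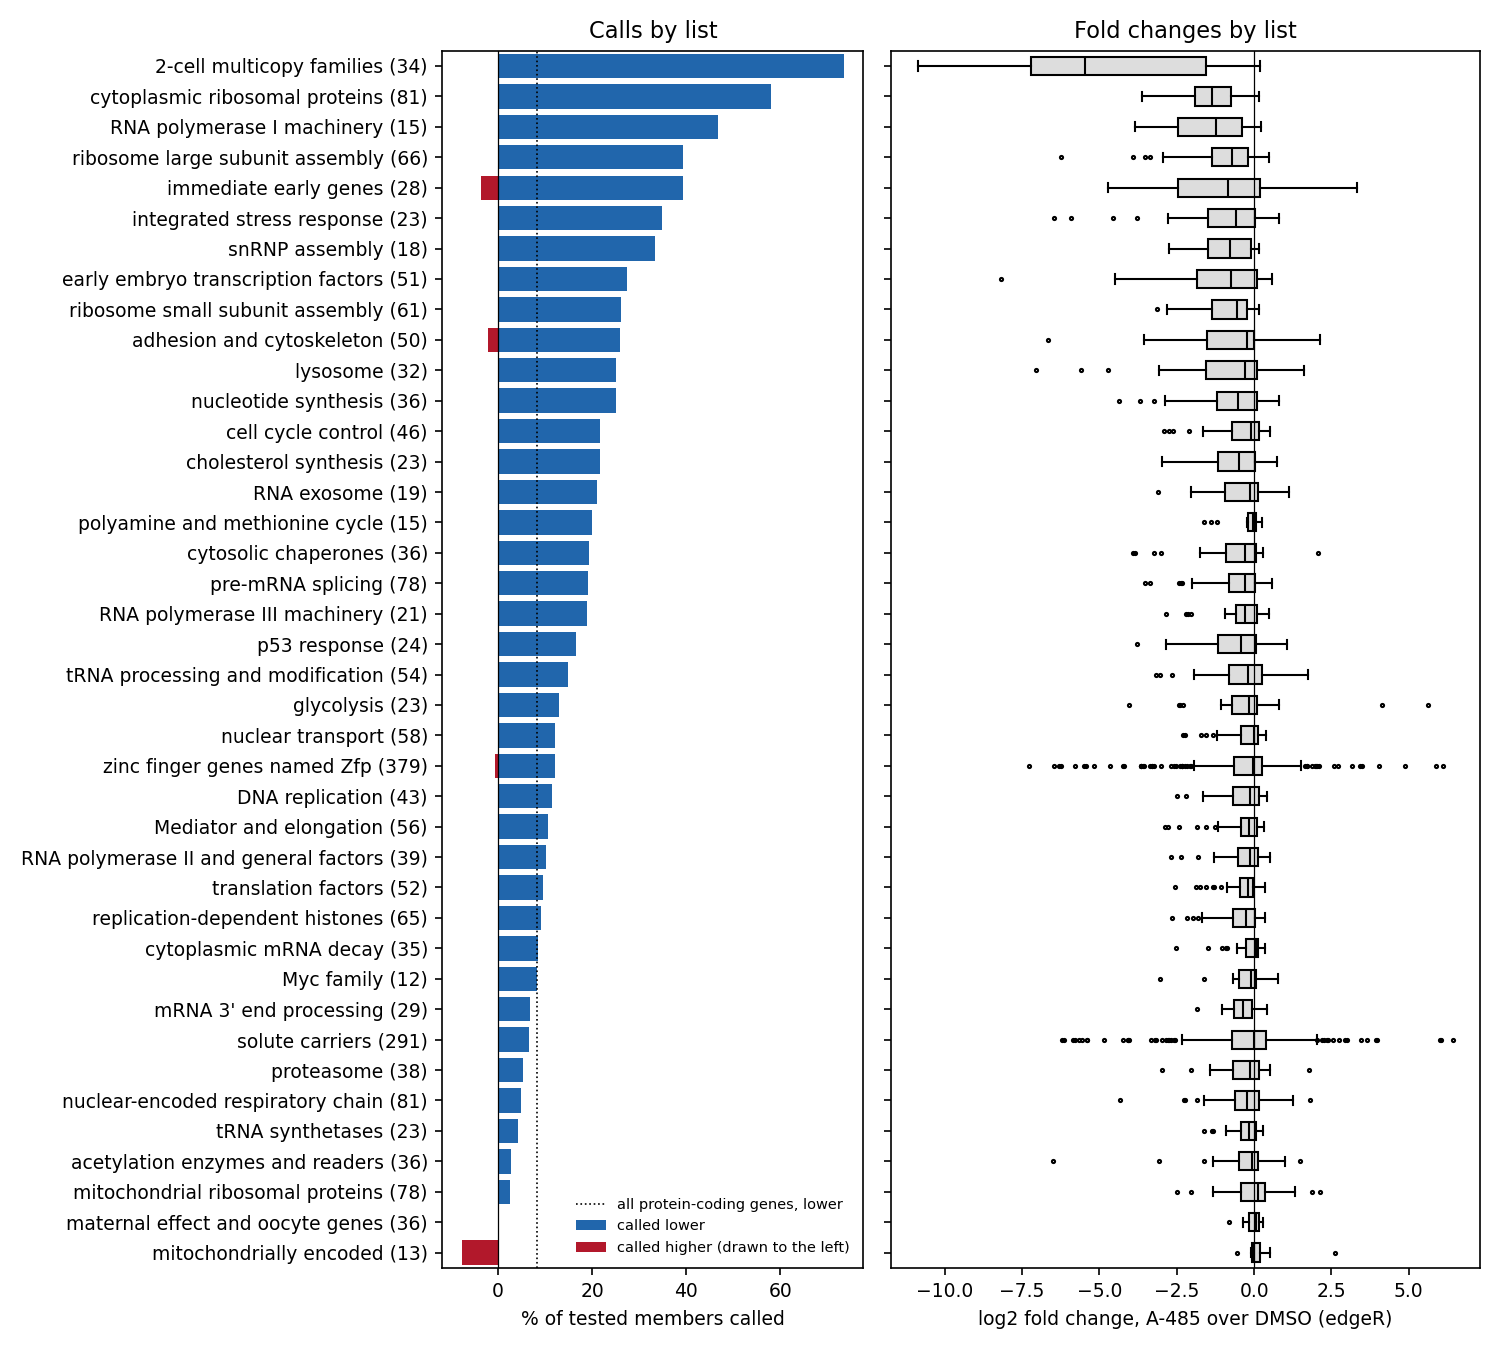
Left, percentage of the tested members of each gene list called lower (blue) or higher (red, drawn to the left of 0), with the number tested in parentheses and the share of all protein-coding genes called lower (8.36%) as a dotted line. Right, log2 fold changes of all tested members, with boxes from the first to the third quartile, a line at the median, whiskers to 1.5 interquartile ranges and points beyond; 2-cell families and ribosome-related lists lie at the top, mitochondrial ribosomal proteins and maternal genes at the bottom.

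The 42 genes that rose were few and weakly expressed. Their median FPKM was 0.583 with DMSO and 1.98 with A-485, 21 of them stayed under an FPKM of 2 and 3 reached 10 or more with A-485 (*mt-Co2*, *Ccdc127* and the gene model *Gm49366*, named after their values were seen). In 22 the rise was at least 4-fold, 6 shared reads with copies, and 5 had at most 3 counts in both controls. *Zswim9*, a zinc finger SWIM domain gene on chromosome 7, had an FPKM of 0.35 and 0.23 with DMSO and 3.68 and 3.44 with A-485 (log2 fold change 3.85, SE 0.32, adjusted p = 3.4e-06). *Ahnak*, a very large scaffold protein of the membrane and cytoskeleton, went from 1.33 and 0.89 to 3.66 and 4.25 (2.13, SE 0.15, adjusted p = 9.1e-07), and *Jrkl* from 0.69 and 0.56 to 2.73 and 2.63 (2.11, SE 0.32). Each of these lay well above both controls in both treated libraries. *Rrh*, the retinal pigment epithelium opsin peropsin, had 1.07 and 1.26 against 3.79 and 3.99 (2.06, SE 0.42), *Tmem167* 0.54 and 0.82 against 2.1 and 2.25 (1.9, SE 0.25), and *Zfp78* 1.39 and 2.19 against 4.17 and 3.86 (1.72, SE 0.33). Leaving *mt-Co2* and *Gm49366* aside, the most abundant, *Ccdc127*, had 8.21 and 5.56 with DMSO and 12.9 and 17.04 with A-485 (1.53, SE 0.19, adjusted p = 1.2e-04).

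Several increases lost their call when 1 library was left out, with folds of similar size. *Tia1*, an RNA-binding protein of stress granules, had an FPKM of 0.95 and 0.43 with DMSO and 1.09 and 3.03 with A-485, and its adjusted p went from 0.008 to 0.071 without A-485 replicate 2 (log2 fold change 2.9 and 2.59). *Ovgp1*, an oviduct glycoprotein, had 0.68 and 1.13 against 2.54 and 3.4, with 0.010 and 0.062 in the same way (2.42 and 2.21). The chemokine gene *Ccl25* (1.18 and 2.33 against 4.2 and 5.8) had an adjusted p of 0.014, and 0.064 without A-485 replicate 2 or 0.051 without DMSO replicate 1 (1.51, then 1.34 and 1.18). Calls near the threshold thus moved with single libraries of either treatment. The methyltransferase gene *Mettl13* (1.49 and 0.75 against 2.26 and 2.38) reached 0.073 without A-485 replicate 1 and 0.080 without DMSO replicate 1 (1.51, then 1.45 and 1.18), and *Zfp952* (1.22 and 2.04 against 4.64 and 3.34) 0.10 without A-485 replicate 1 (1.27 and 1.02). All other genes named here as having risen kept their call without each library in turn, except *Zik1* (1.23 and 1.73 against 2.66 and 3.35), which was lost without A-485 replicate 2 (adjusted p = 0.098) or DMSO replicate 1 (0.082). *Ccn2*, *Gm49366* and *Zc3h11a* were not run in this way.

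The *Ahnak* promoter (chr19:8989034-8989333, plus strand) is shown as that of an increase that kept its call without each library in turn.
Ahnak: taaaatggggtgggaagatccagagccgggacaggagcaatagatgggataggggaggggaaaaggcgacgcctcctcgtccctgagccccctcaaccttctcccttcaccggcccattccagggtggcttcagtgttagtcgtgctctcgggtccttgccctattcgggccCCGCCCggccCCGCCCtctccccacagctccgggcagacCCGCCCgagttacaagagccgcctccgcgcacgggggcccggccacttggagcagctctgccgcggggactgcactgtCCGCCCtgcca
It held 4 matches to GGGCGG, at -78, -68, -39 and 39, and none to the other motifs searched. At the 2-fold cutoff, *Plekhf2* (5.67 and 6.04 with DMSO, 2.7 and 3.07 with A-485, log2 fold change -1.0) and *Cct4* were just inside for decreases and *Zik1* for increases, while *Tesk2* (5.51 and 4.02 against 2.4 and 2.46) and *Papolb* (3.54 and 2.92 against 1.76 and 1.44) were just outside. A fold change here is that of counts. FPKM also divides by an effective length that depends on the isoforms estimated, and 1 gene called lower and 1 called higher (*Zc3h11a*, named after its values were seen) had a mean FPKM that moved the other way.

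The genes that fell were mainly those whose RNA rises from the zygote to late 2-cell. Their timing was taken from libraries outside the comparison, DMSO-treated zygotes and the DMSO-treated late 2-cell embryos of another inhibitor experiment of the series, with 2 libraries each. Between these 2636 protein-coding genes rose at least 4-fold at an adjusted p under 0.01 (16.9% of those tested) and 1859 fell (11.9%). Of the rising genes 2499 were tested at early 2-cell, and 944 of them (37.8%) were called lower with A-485, with a median log2 fold change of -1.43. Of 1848 falling genes 6 were lower (0.325%) and 6 were higher, with a median of 0.12, and of 10390 genes that did neither 346 were lower (3.33%). Seen from the other side, 72.7% of the genes called lower were rising, while the 42 genes called higher comprised 11 rising, 6 falling and 24 neither, and the last had no class. The median FPKM of the genes called lower was 1.21 in DMSO-treated zygotes, 7.46 in the early 2-cell controls, 1.15 after A-485 at that stage and 20.3 in DMSO-treated late 2-cell embryos. In 83.1% of them the early 2-cell control was above the zygote control, against 37.6% of expressed genes not called. Under an FPKM of 1 in the zygote were 47.1%, against 7.78% of expressed genes not called. The early 2-cell libraries also made the calls, so the levels at that stage are not independent of them.

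The genes that fell were also short. Their median genomic span was 12.8 kb, against 29.1 kb for expressed genes not called, 17.9 kb for those called higher and 6.03 kb for those that fell at least 16-fold. Among genes with an FPKM of at least 1, 25.9% of those under 5 kb fell (313 of 1210), then 16.3%, 10.4% and 5.58% in the classes from 5 to 20, 20 to 50 and 50 to 100 kb, and 2.66% of those of 100 kb or more (43 of 1619). The median control FPKM of these classes was 7.29, 6.51, 8.47, 10.4 and 8.58. Genes annotated with 1 exon made up 6.16% of the genes called lower and 14.4% of those that fell at least 16-fold, against 2.04% of those not called. The X chromosome carried 72 of the genes called lower, 18.9% of its 381 expressed genes, while the autosome with the highest share, chromosome 4, carried 113 of 705.

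**Figure D4:**
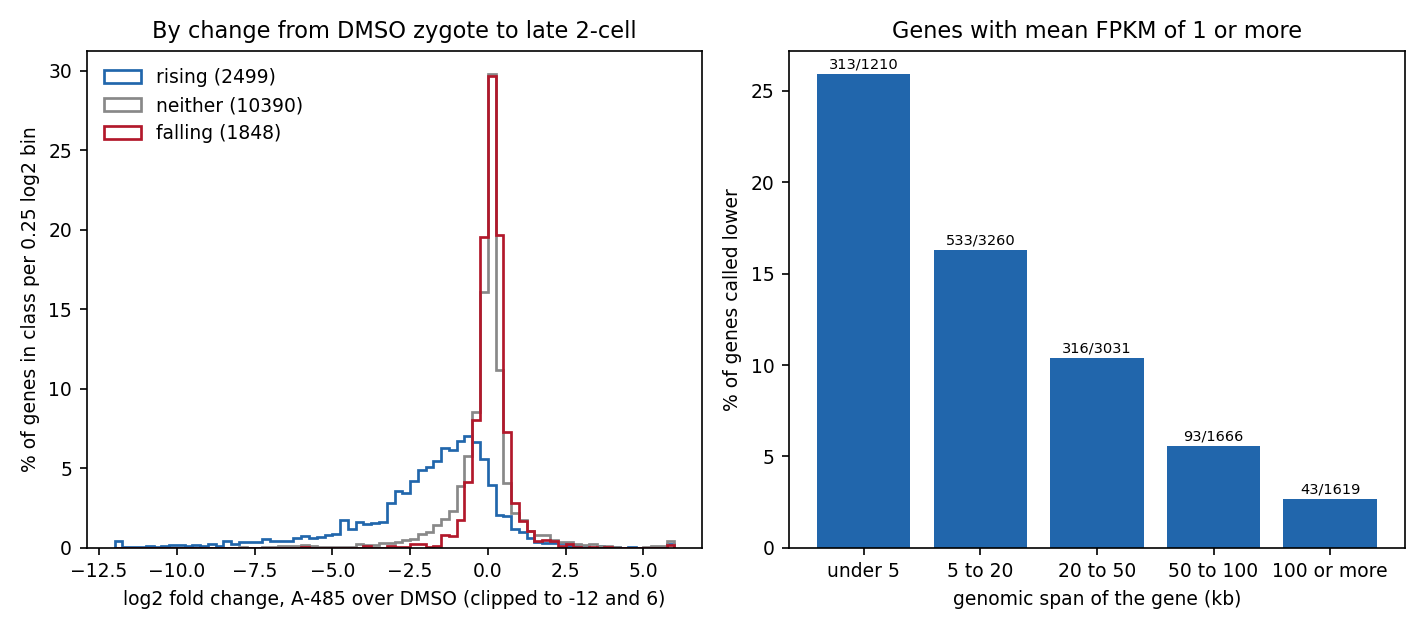
Left, distribution of the log2 fold change of A-485 over DMSO at early 2-cell (bins of 0.25, values clipped to -12 and 6) for protein-coding genes that rose, fell or did neither from DMSO-treated zygotes to late 2-cell embryos; rising genes extend far to the left, while falling genes centre on 0.12. Right, percentage of expressed genes (FPKM of 1 or more with either treatment) called lower, by genomic span, with the counts above each bar, from 25.9% under 5 kb to 2.66% at 100 kb or more.

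Open chromatin at early 2-cell was measured by ATAC-seq under the same treatments, with 1 list of reproducible peaks per treatment deposited over both replicates, 27693 peaks with DMSO and 13712 with A-485. A peak lay within 1 kb of a start site of 61.0% of the genes called lower in the DMSO list and of 62.2% in the A-485 list, against 53.9% and 65.5% of all protein-coding genes with an FPKM of at least 1. Of the genes called lower with a DMSO peak, 19.4% had none in the A-485 list, against 14.9% of all. Among those that fell at least 16-fold 30.8% had a DMSO peak and 20.4% an A-485 peak, and 56.5% of the DMSO peaks had no A-485 counterpart. Among the 2-cell multicopy families 8 of 34 had a DMSO peak and 1 an A-485 peak, and short reads map poorly to such copies. *Zfp352* had a peak with an enrichment of 16.9 in the DMSO list and none in the A-485 list. *Bag3* had one in both (8.44 and 10.3), *Rplp0* only in the A-485 list (7.71), *Tsr1* (6.01) and *Ahnak* (6.8) only in the DMSO list. For ribosomal protein genes the shares were 76.5% and 81.5%. With 1 list per treatment these shares carry no replicate error and were not tested, and the shorter A-485 list was called from libraries whose depth is not given here.

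Promoter sequence differed with the size of the fall, given here as a description. The median observed over expected CpG ratio was 0.77 over the windows of all expressed genes, 0.7 for the genes called lower, 0.8 for those that fell under 4-fold, 0.22 for those that fell at least 16-fold and 0.12 for the 2-cell multicopy families. The median GC content was 60.3% over all and 47.0% for the falls of at least 16-fold. GGATTA was present in 28.4% of the windows of the latter and in 6.62% of all, AGGTCA in 21.7% and 11.9%, TATAAA in 20.4% and 7.42%, and GGGCGG in 23.7% and 62.3%. Windows of genes that fell under 4-fold held these at 5.64%, 9.34%, 8.17% and 65.0%. Members of one family share their promoters, so these windows are not independent of each other.

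The effect of A-485 was also measured before and after this stage, in libraries not shared with it. The late 2-cell embryos had A-485 from 4 to 20 hpi and were collected after its removal. For the zygotes no end of treatment is given. The paper reports that global H3K27ac returned to the control level once A-485 was washed off. Late 2-cell values thus differ from early ones in stage and in time since the inhibitor, which cannot be told apart. In zygotes 7 protein-coding genes were lower (0.0487%) and 1 was higher (0.00696%), and of the 1165 genes called lower at early 2-cell that were tested there, 3 were lower. At late 2-cell 20.8% of the genes tested were lower and 9.60% higher, and of 1294 genes called lower at early 2-cell 987 (76.3%) were lower again, which is 29.2% of the late 2-cell list. Of the 42 increases 26 (61.9%) were higher again, or 1.66% of the late list. The A-485-treated late 2-cell libraries stood apart in composition, with 19.52% and 20.65% of counts on the mitochondrial genome against 12.3% and 10.54% with DMSO and totals of 13206163 and 14922961 against 23067712 and 19215326, and the part of this in the late values was not tested. Cytoplasmic ribosomal proteins fell further, with a median log2 fold change of -2.77 and 79 of 82 called lower at late 2-cell. Mitochondrial ribosomal proteins, with 2 of 78 lower at early 2-cell, had 27 of 78 lower at late 2-cell and a median of -0.63. The 2-cell multicopy families had a median of -2.46, against -5.45 at early 2-cell: *Zscan4d*, for example, went from 15.53 and 17.82 with DMSO to 5.49 and 2.07 at late 2-cell (log2 fold change -2.35, SE 0.37), and the difference of its effects between stages was 5.75 (adjusted p of the interaction = 7.1e-09). Of 178 named genes tested at both stages, the effect differed between them in 106 at an adjusted p under 0.05, and of 120 that were lower at early 2-cell 60 had an effect nearer 0 at late 2-cell. The named genes were chosen largely by their early 2-cell values, and the share over all genes tested is not given here. These counts therefore describe the named genes alone. *Zswim9* (5.52) and *Ahnak* (4.37) had larger increases at late 2-cell, and *Tmem167* (0.82), *Mettl13* (0.42) and *Zfp952* (0.77) were not called there.

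**Figure D5:**
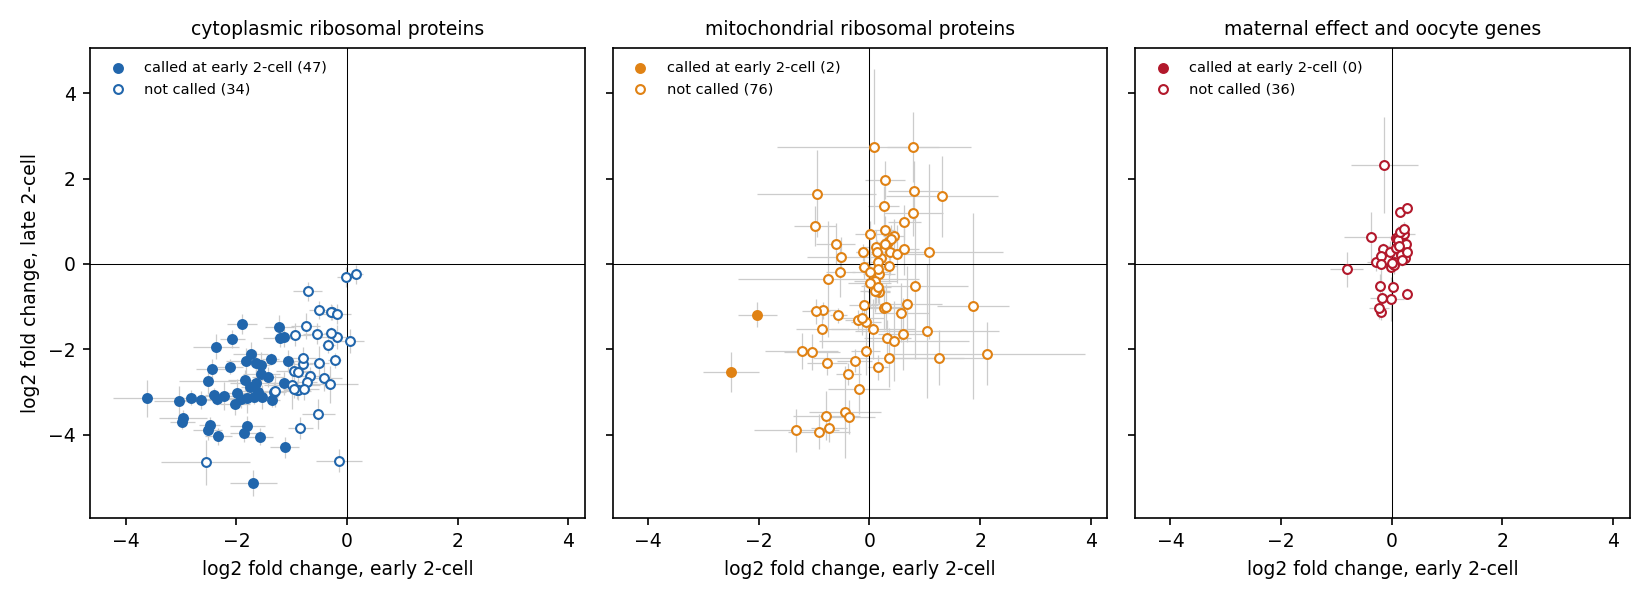
log2 fold change of A-485 over DMSO at early 2-cell (x axis) and late 2-cell (y axis) for cytoplasmic ribosomal proteins, mitochondrial ribosomal proteins and maternal genes, with grey bars of 1 SE from edgeR; filled points were called at early 2-cell. Ribosomal proteins lie in the lower left at both stages, while maternal genes gather near 0 at early 2-cell.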

How the data were processed

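RNA was measured in 4 early 2-cell libraries (2 DMSO, 2 A-485) with a stranded total RNA kit and paired-end sequencing. The authors trimmed reads with Trimmomatic 0.39, aligned them to GRCm38 with STAR 2.7.8a and deposited RSEM 1.3.1 expected counts and FPKM values per gene; whether strand was used in counting is not given in the sources used here, so overlapping and antisense genes are uncertain. For ATAC-seq the authors deposited reproducible peaks with their fold enrichment over background, as 1 list per treatment over both replicates. No column of per-sample values was left out.

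Expected counts were rounded, genes with under 10 counts in all were dropped, and A-485 was compared with DMSO over genes of all types with edgeR 4.0.16 (R 4.3.3; TMM, quasi-likelihood test, Benjamini-Hochberg adjustment); calls were counted over protein-coding genes. SE is the absolute log2 fold change over the square root of F. A posterior SD over 0.1 of the count in the higher group marked shared reads. Gene IDs were matched without version to GENCODE M21 (55144 of 55385). Stage effects were compared by an interaction term over 8 libraries. Alternatives used DESeq2 1.42.0, limma 3.58.1, other scalings and filters, and each library left out. The main edgeR fit of A-485 against DMSO was tested on simulated data, and no such test is given for the other fits. Genes with values were named by rule, first the 12 largest falls and rises and the 6 highest levels in each direction. These had no overlap in FPKM between treatments, no shared reads and no gene-model symbol (which 162 genes called lower and 5 called higher had). The largest falls also needed a mean control FPKM of 10, and the largest rises 2 with A-485, so some larger changes are not named. Each list gave up to 3 called members with the smallest adjusted p and its most abundant member. Both targets and the genes nearest the cutoff were added, and other called members are given by symbol. The gene lists and members were chosen with earlier results of these data known. Promoters came from RefSeq for 8477 of 10786 genes and otherwise from the genome (10772 in all). Counting intervals are exact, at 95%, and cover counting error only. A few genes that these rules name are not reported here.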

Additional observations from a re-analysis of the deposited data

Results flagged for a closer look

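Of 178 genes that the naming rule gave and that were tested at both stages, 16 had effects of opposite sign at early and late 2-cell and an interaction adjusted p under 0.05 in edgeR, which is what put them forward. The late 2-cell A-485 libraries differed from their controls in mitochondrial share (19.52% and 20.65% against 12.3% and 10.54%), and the part of this was not tested. These embryos were also collected after A-485 was removed, so stage and time since the inhibitor cannot be told apart. The interaction is the late minus the early log2 fold change. *Mycn*, *Gata2*, *Plk2*, *Psmd4* and *mt-Co2* had an adjusted p under 0.05 in edgeR at both stages. In the other genes the early or the late effect, or both, did not reach it, so the sign there is uncertain.

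The effect moved upward in 7 genes. It was 4.61 for *Mycn* (-3.03 early, 1.5 late), 4.08 for *Gata2* (-2.91, 1.08) and 3.08 for *Klf10* (-2.74, 0.25). It was 2.57 for *Plk2* (-1.54, 0.95) and 1.81 for *Tut4* (-1.49, 0.24). All 5 of these were called lower at early 2-cell. It was 0.59 for *Farsb* (-0.02, 0.49) and 0.53 for *Ptges3* (-0.05, 0.4), which were not.

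The effect moved downward in 9 genes. It was -4.36 for *mt-Co2* (2.62, -1.81), whose call is uncertain, -2.48 for *Dppa3* (0.16, -2.41) and -2.3 for *Snrpe* (0.05, -2.34). It was -1.78 for *Psmd4* (0.33, -1.53), -1.52 for *Atp5b* (0.03, -1.57) and -1.44 for *Trmt112* (0.08, -1.45). It was -0.56 for *Riok1* (0.16, -0.49), -0.52 for *Obox5* (0.11, -0.49) and -0.46 for *Strap* (0.16, -0.39). With limma's voom fit the adjusted p was over 0.05 for *Riok1* (0.12) and *Farsb* (0.057).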

How the results depend on the processing

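The count of genes called lower (1298) was 1240 with DESeq2 and lay within 1.5 times under all alternatives run, from 1157 to 1287 without any 1 library. The count called higher (42) rested more on the settings: it was 66 in a fit of all 16 RNA libraries, 68 without the filter on low counts, 72 without the FPKM cutoff and 236 with no cutoff on the fold (the FPKM cutoff kept), and 36 to 75 without any 1 library. The cause was not tested beyond the wider set of genes that the last 3 of these settings admit or test. Scaling to mitochondrially encoded genes gave 1376 and 34. Rising genes were called lower at 31.4% with a 2-fold class and 42.6% with the other late 2-cell controls. Promoter peaks of genes called lower were at 57.8% within 500 bp and 24.9% with peaks at or above the list's median enrichment. The interaction passed in 85 of the named genes with limma's voom, against 106. The named genes were chosen largely by their fold, adjusted p or level in the same libraries. That choice favours a stable direction, so their values do not stand for all genes. Among 2147 values of named genes under alternatives none changed direction and 43 no longer passed.

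With the replicate block the counts were 1386 and 67. The replicate numbers share no more than a number, since the same-numbered deviations had a correlation of -0.031 across genes, so the block is not read as a pairing.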
